A study of Mus musculus with 12 samples.

Results

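The 10 genes described here, H2-K1, H2-D1, H2-T23, B2m, Tap1, Tap2, Tapbp, Erap1, Nlrc5 and Psmb8, carry out or control antigen presentation on MHC class I molecules. They were taken by symbol from the 55291 rows of an expression table of alveolar macrophages, which live in the air sacs and clear inhaled material. All 10 symbols were found. All 10 also belonged to the 19633 genes kept for testing, and in none of them did a mouse lie at the shared minimum, the value that mice without a read for a gene have in common.

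The cells came from female C57BL/6NJ mice aged 8 to 11 weeks that had breathed either filtered air or 0.8 ppm ozone for 4 h a day on 4 consecutive days. Lungs were taken 3 days after the last exposure and the macrophages were isolated by flow sorting. Each group held 6 mice, 3 in each of 2 flow-sort batches, and each mouse gave 1 library. Ozone was the only difference between the groups that the labels record, and no gene was targeted in either.

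Class I molecules display short peptides from inside the cell to CD8 T cells. Peptides are cut by the proteasome, pumped into the endoplasmic reticulum by the TAP transporter, trimmed there by the aminopeptidase Erap1 and loaded, with the help of tapasin, onto a heavy chain paired with beta-2-microglobulin. Interferon gamma and the transactivator Nlrc5 are known to raise most of these genes together, whereas class II molecules, which present material taken up by phagocytosis, are controlled by a separate transactivator, Ciita. Resident alveolar macrophages are known as comparatively weak stimulators of T cells.

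Expression is given as a variance-stabilized log2 value from which each gene's filtered-air mean has been taken away, so that this mean is 0. The level of a gene was therefore not kept, and genes cannot be ranked by abundance. A difference on this scale approaches a log2 fold change in genes with many reads and understates it in genes with few. Depth could be compared through the step that 1 read makes above the shared minimum, which was 0.0973 to 0.115 after ozone and 0.0992 to 0.113 after filtered air. These ranges overlapped. RNA integrity numbers were 9.2 to 9.7 after ozone and 8.9 to 9.7 after filtered air, with the lowest in filtered-air mouse 4. All 12 markers of alveolar macrophages that were examined were read in all 12 mice, but so were all 7 dendritic cell markers, all 5 B cell markers and all 5 endothelial markers, and the part of other cells' RNA in the values was not tested. Of the 12 macrophage markers 4 were higher and 8 lower, with a median of -0.062 and 5 at an unadjusted p under 0.05. Among them Car4 rose by 0.32, Ear1 fell by 0.28 and Krt79 fell by 0.35 (limma adjusted p = 0.0460, 0.0358 and 0.0177). Marco, a scavenger receptor, had the largest difference of the 12, 0.58, which did not pass (limma adjusted p = 0.108). Of 6 epithelial markers 4 were lower and 2 higher, and 1 was called: Epcam, an epithelial adhesion protein, lay between -0.31 and 0.27 in filtered air and between -0.76 and -0.33 after ozone and fell by 0.55 (limma adjusted p = 0.00620). The mean of the 6 markers was -0.24 to 0.32 in filtered air and -0.20 to 0.018 after ozone. In bulk RNA, fewer cells of a type and less RNA per cell cannot be told apart.

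In GRCm38 coordinates from GENCODE M21, 7 of the members lie in the MHC on chromosome 17. They are Tapbp (chr17:33915899-33929292), H2-K1 (chr17:33996017-34000347), Tap1 (chr17:34187553-34197225), Psmb8 (chr17:34197721-34201454), Tap2 (chr17:34203527-34216321), H2-D1 (chr17:35262730-35267499) and H2-T23 (chr17:36029773-36032855). Erap1 lies at chr13:74639568-74693201, B2m at chr2:122147686-122153083 and Nlrc5 at chr8:94434356-94527272. The heavy chains resemble each other in sequence, which matters for reading their values. Of the 50-base windows of the longest H2-T23 transcript, 28.8% also occur in transcripts of other genes. The share was 14.3% for H2-D1 and 8.79% for H2-K1, of which 109 of 1570 windows were shared with H2-D1. Such windows made up 0 in B2m, Erap1, Nlrc5 and Psmb8 and at most 2.00% in Tap1, Tap2 and Tapbp. How reads in shared stretches were assigned is not given in the sources used here, so the values of the heavy chains are less certain than those of the other members.

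The sequences before the start sites are shown because class I genes are known to share control elements there, and because the following sections compare how these genes varied. They are the bases upstream of the start of H2-K1 (chr17:34000348-34000597, minus strand) and of B2m (chr2:122147437-122147685, plus strand), and 30 bases around 1 match each of H2-D1 (chr17:35262913-35262942, plus strand) and H2-T23 (chr17:36032806-36032835, minus strand), all from RefSeq's GRCm38.p6 table. Capitals mark matches, on either strand, to the motifs described in the next paragraph.
H2-K1: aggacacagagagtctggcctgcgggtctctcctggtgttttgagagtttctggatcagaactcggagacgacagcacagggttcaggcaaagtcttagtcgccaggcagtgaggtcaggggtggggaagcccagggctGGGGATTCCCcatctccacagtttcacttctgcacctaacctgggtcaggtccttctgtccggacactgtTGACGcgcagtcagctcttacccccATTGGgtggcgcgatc
H2-D1: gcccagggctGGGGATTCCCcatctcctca
B2m: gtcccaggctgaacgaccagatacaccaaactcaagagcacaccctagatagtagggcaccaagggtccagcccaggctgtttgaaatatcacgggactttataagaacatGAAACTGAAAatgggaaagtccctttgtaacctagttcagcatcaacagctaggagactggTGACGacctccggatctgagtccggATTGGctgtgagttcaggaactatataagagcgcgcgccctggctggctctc
H2-T23: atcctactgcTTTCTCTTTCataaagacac

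The table held start sites for 8 of the 10 members, and the 250 bases before each start were searched (225 for Tap1, up to the RefSeq start of its divergent neighbour Psmb9). RefSeq and GENCODE place several starts differently. By the GENCODE spans given above, the searched bases lie wholly inside the gene in H2-D1, Tapbp, Erap1 and Psmb8, and 154 of 250 do in H2-T23. In B2m 1 base lies inside, in Tap1 3 and in H2-K1 0. The kappa B site of class I genes, bound by NF-kappa B factors and searched for as the letters in capitals in the H2-D1 stretch, was found in H2-K1 and H2-D1 and in 0.0852% of all 32851 windows. The core of the interferon-stimulated response element, searched for as a pair of GAAA with any 2 bases between them, was found in H2-T23 and B2m and in 2.98% of windows. The gamma-activated sequence TTCNNNGAA was found in Psmb8 and in 7.02% of windows. The CCAAT box was found in 6 of the 8 members and in 33.8% of windows, and the half-site TGACG in 4 of the 8 and in 17.8% of windows. No 2 kinds of match overlapped in the sequences shown. Where aligned, the windows of H2-K1 and H2-D1 were identical at 170 of 190 bases (89.5%), and those of H2-D1 and H2-T23 at 134 of 229 (58.5%). A match describes these letters and does not show binding.

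The comparison of ozone with filtered air asks whether the class I pathway was altered in macrophages from lungs that had gone through repeated ozone. Of the 10 members 1 was called, Erap1, which rose. Across all genes tested 4.25% were called at an adjusted p under 0.05 in limma, 2.41% higher and 1.84% lower after ozone, and a count of 1 in 10 rests on a single gene against that background. The remaining 9 members did not pass, and 2 of the 10, both higher, had an unadjusted p under 0.05, where the share over all genes was 16.7% (8.43% higher and 8.29% lower). After ozone 7 of the 10 were higher and 3 lower, with a median difference of 0.024, against 48.0% higher and a median of -0.0033 over all genes. In 0 of the 10 were the 6 ozone values separate from the 6 filtered-air values, which held for 3.53% of all genes.

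**Figure D1:**
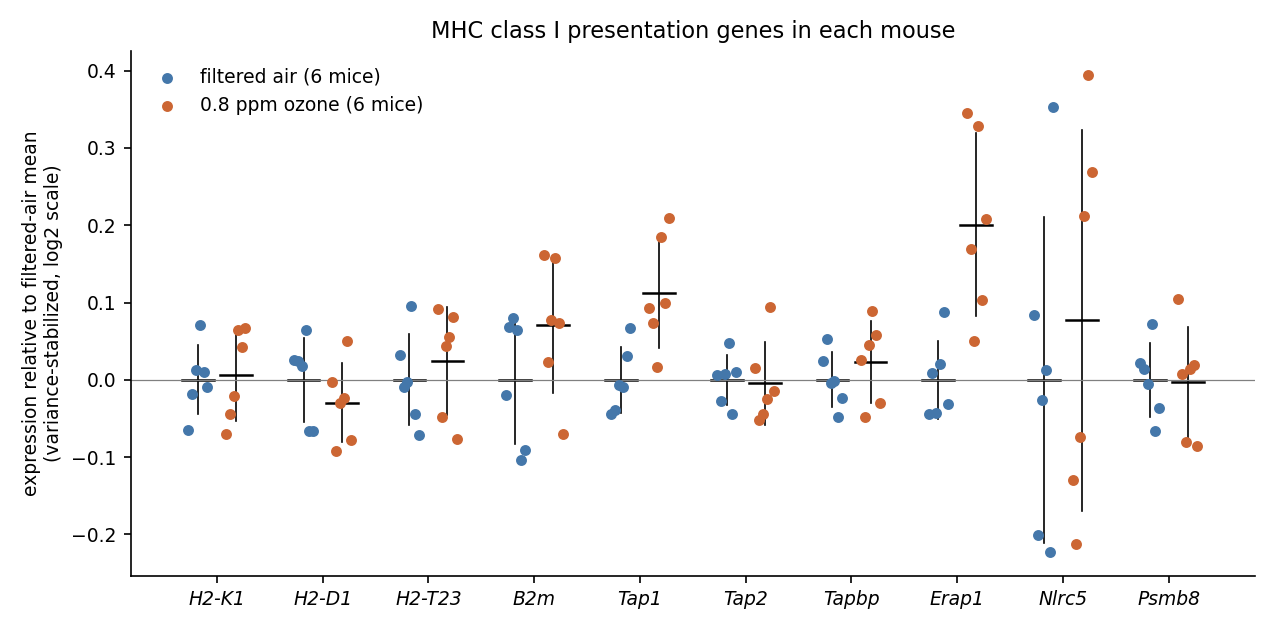
Expression of the 10 members in each mouse, as the deposited variance-stabilized value relative to the filtered-air mean (y axis, log2 scale), with 1 point per mouse, horizontal bars for group means and vertical bars for 1 SD. The groups overlap in every member, the ozone mean of Erap1 lies at 0.20, and Nlrc5 has the widest spread.

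The classical heavy chains present peptides to CD8 T cells. H2-K1 lay at -0.065, -0.018, 0.012, 0.071, 0.0100 and -0.0094 in filtered-air mice 1 to 6 and at -0.070, -0.044, -0.021, 0.065, 0.042 and 0.067 in ozone mice 1 to 6. The groups covered the same range. The difference was 0.0065 (95% interval -0.075 to 0.088, limma adjusted p = 0.960), and ozone means were 0.0065 ± 0.059 (SD, n = 6) against 0 ± 0.045 (SD, n = 6). H2-D1 lay at 0.026, 0.025, 0.018, 0.065, -0.067 and -0.066 in filtered air and at -0.0031, -0.092, -0.030, -0.023, 0.050 and -0.078 after ozone. Here too the groups overlapped, although 5 of 6 ozone mice lay below the filtered-air mean. Its difference was -0.029 (95% interval -0.11 to 0.053, limma adjusted p = 0.782).

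H2-T23 encodes Qa-1, a non-classical heavy chain recognised by receptors of NK cells and some T cells. Its values were 0.032, -0.0089, -0.0029, 0.095, -0.045 and -0.071 in filtered-air mice 1 to 6 and 0.091, -0.048, 0.043, 0.056, 0.081 and -0.077 in ozone mice 1 to 6. High and low mice occurred in both groups, and the difference was 0.024 (95% interval -0.066 to 0.11, limma adjusted p = 0.843). B2m, the light chain common to all class I heavy chains, lay at -0.019, 0.068, 0.080, 0.065, -0.10 and -0.091 in filtered air and at 0.16, 0.023, 0.077, 0.16, 0.074 and -0.070 after ozone. Only ozone mice 1 and 4 were above every filtered-air mouse. The difference of 0.071 (95% interval -0.037 to 0.18) did not pass the test (limma adjusted p = 0.548).

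Tap1 and Tap2 form the peptide transporter. Tap1 lay at -0.044, -0.039, -0.0063, -0.0090, 0.031 and 0.068 in filtered-air mice 1 to 6 and at 0.093, 0.074, 0.016, 0.18, 0.0998 and 0.21 in ozone mice 1 to 6. Of the ozone mice 5 were above every filtered-air mouse, and mouse 3 lay within their range. The difference of 0.11 (SE 0.040, unadjusted p = 0.0140) did not pass after adjustment over all genes (limma adjusted p = 0.151). It was 0.13 in batch 1 and 0.10 in batch 2. Tap2 ranged from -0.044 to 0.047 in filtered air (median 0.0070) and from -0.053 to 0.094 after ozone (median -0.019), with a difference of -0.0044 (95% interval -0.080 to 0.072, limma adjusted p = 0.973). Whether the response of Tap1 differed from that of Tap2 was not tested.

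Tapbp encodes tapasin, which bridges the transporter and the empty heavy chain. It ranged from -0.048 to 0.053 in filtered air (median -0.0028) and from -0.048 to 0.089 after ozone (median 0.035), with a difference of 0.023 (95% interval -0.053 to 0.0998, limma adjusted p = 0.819). Psmb8 encodes a catalytic subunit of the immunoproteasome, the interferon-induced form of the proteasome. It ranged from -0.067 to 0.072 in filtered air (median 0.0045) and from -0.085 to 0.11 after ozone (median 0.011), with a difference of -0.0033 (95% interval -0.091 to 0.084, limma adjusted p = 0.983). In both genes the groups overlapped widely, and the ozone values reached higher.

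Erap1, the aminopeptidase that trims peptides to class I length, was the called member. It lay at -0.044, 0.0095, -0.043, 0.020, 0.088 and -0.031 in filtered-air mice 1 to 6 and at 0.34, 0.17, 0.050, 0.33, 0.10 and 0.21 in ozone mice 1 to 6. All 6 ozone mice were above the filtered-air mean and 5 were above every filtered-air mouse, the exception being ozone mouse 3, which was below filtered-air mouse 5. Erap1 rose by 0.20 (SE 0.052, limma adjusted p = 0.0459), to 0.20 ± 0.12 (SD, n = 6) against 0 ± 0.051 (SD, n = 6). The exact permutation test of the same values gave an unadjusted two-sided p of 0.00433. The rise was 0.20 in batch 1 and 0.20 in batch 2, with 3 mice against 3 in each. Its adjusted p was close to the threshold: without single mice it ranged from 0.0240 to 0.103, and of these 12 fits 3 kept the call, those that left out mouse 5 of the filtered-air group or mouse 3 or 5 of the ozone group. The rises were 0.17 to 0.23. The call was also lost without both mice numbered 4 (adjusted p = 0.155), with no filter (0.0548), with a variance trend (0.0571), after quantile normalization (0.139) and with RNA integrity as a covariate (0.0644). With 3 mice against 3, batch 1 gave 0.319 and batch 2 gave 0.480.

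Nlrc5, the transactivator of class I genes, differed more between mice of 1 exposure than between exposures. It lay at 0.084, -0.20, -0.026, 0.013, -0.22 and 0.35 in filtered-air mice 1 to 6 and at -0.13, -0.21, -0.074, 0.21, 0.39 and 0.27 in ozone mice 1 to 6. Filtered-air mouse 6 and ozone mice 4, 5 and 6 were high, and both groups reached nearly as low. The difference of 0.077 had an SE of 0.11, larger than in 98.4% of the genes tested, and a 95% interval from -0.17 to 0.32 (limma adjusted p = 0.814). Changes of Nlrc5 within that interval are therefore compatible with the values of these mice.

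The intervals bound the changes that the other members could have had. In 6 members, H2-K1, H2-D1, H2-T23, Tap2, Tapbp and Psmb8, both ends of the 95% interval lay closer to 0 than 0.121, the smallest difference of any called gene. The median absolute difference of called genes was 0.25. These intervals are not adjusted for the number of genes, and a p that misses the threshold does not show that a gene was the same in both groups. In limma's interaction test 0 of 10 members had an ozone difference that differed between the batches at an adjusted p under 0.05, with 0 at an unadjusted p under 0.05 and a smallest unadjusted p of 0.358 (Nlrc5). Over all genes 0.00% passed this test after adjustment and 2.60% before it.

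Among 14 other class I heavy chains 13 were tested and 1 was called. H2-T24, a non-classical class I gene, lay between -0.034 and 0.040 in filtered-air mice and between 0.059 and 0.21 (median 0.19) in ozone mice, so the groups did not overlap. It rose by 0.17 (SE 0.036, limma adjusted p = 0.0149), to 0.17 ± 0.057 (SD, n = 6) against 0 ± 0.029 (SD, n = 6). Its adjusted p was 0.00783 to 0.0414 without single mice and 0.0660 without both mice numbered 4. It was 0.0767 after quantile normalization, 0.472 in batch 1 and 0.209 in batch 2. Of its 50-base windows 3.23% occur in transcripts of other genes. The other 12 heavy chains tested did not pass. Their differences ranged from -0.15 in H2-Q6, which shares 32.0% of its windows with other genes, to 0.10 in Cd1d1, which presents lipids. H2-T3 lay at the shared minimum in 10 of 12 mice and was not tested.

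The remaining steps of the pathway held no called gene. Of 5 other chaperones of peptide loading 4 were higher, with a median of 0.052, and Calr, which encodes calreticulin, had the smallest p (difference 0.11, limma adjusted p = 0.186). Of 4 other immunoproteasome and PA28 subunits 1 was higher and 3 lower, with the smallest p in Psmb10 (difference -0.077, limma adjusted p = 0.359). Of 14 core proteasome subunits 13 were lower, with a median of -0.027 and the smallest p in Psma7 (difference -0.10, limma adjusted p = 0.354). These 3 lists had 0 calls in limma. Before adjustment 2 of their genes, both chaperones, had a p under 0.05.

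Of 7 other peptidases that cut antigenic peptides 5 were higher, and Lap3, leucine aminopeptidase, came closest to the threshold (difference 0.12, limma adjusted p = 0.123). Of 14 genes of class I transcription and interferon gamma signalling 6 were higher and 8 lower, with a median of -0.019. Rfxank, a subunit of the RFX complex that binds both class I and class II promoters, had a difference of 0.16 (limma adjusted p = 0.0674, 0.0475 without ozone mouse 4 and 0.0412 with no batch covariate), and Irf1, an interferon-induced activator of class I genes, one of -0.14 (limma adjusted p = 0.226). Of 11 genes used in cross-presentation, the loading of ingested antigen onto class I, 9 were higher with a median of 0.030, and Rab27a had the smallest p (difference 0.16, limma adjusted p = 0.157). These 3 lists also had 0 calls in limma. Before adjustment p was under 0.05 in 2 peptidases, 4 genes of transcription and signalling and 2 of cross-presentation.

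**Figure D2:**
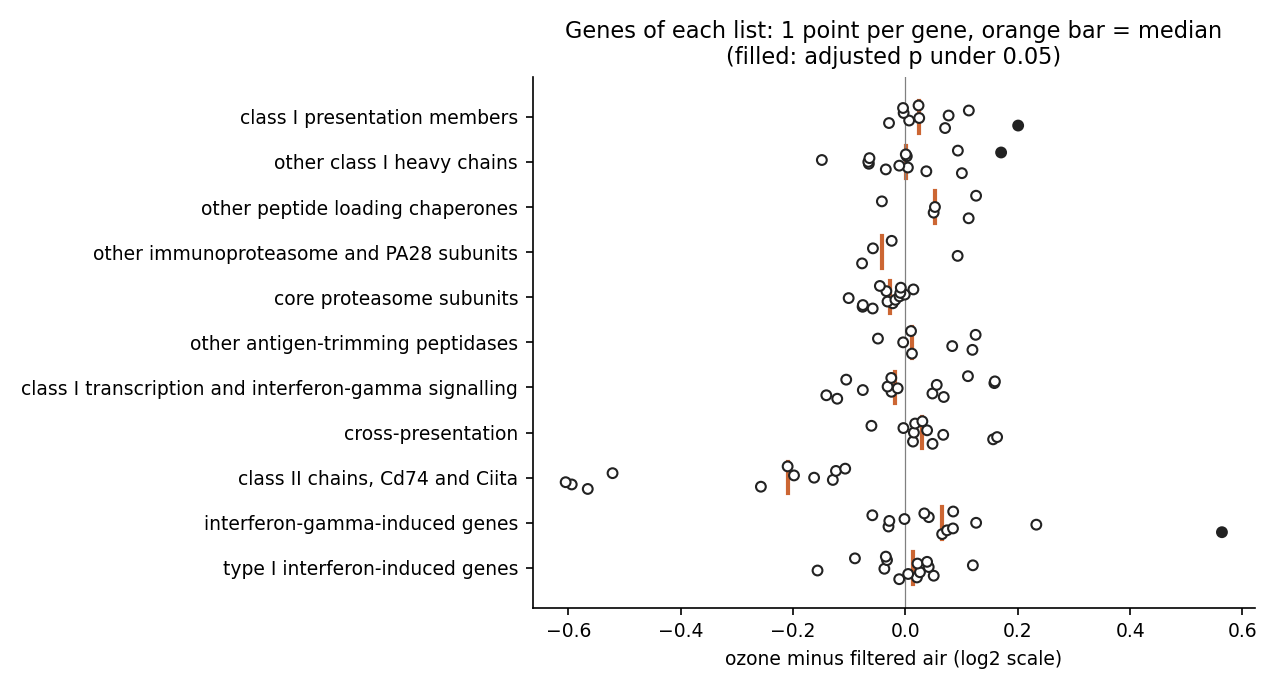
Ozone minus filtered-air difference (x axis, log2 scale) of each tested gene, grouped by list, with 1 point per gene, filled where the adjusted p was under 0.05, and an orange bar at each list's median. Filled points are Erap1, H2-T24 and Cxcl9, and the class II list has a median of -0.21.

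Interferon-induced genes were set beside the members because most class I genes respond to interferon. Of 13 genes induced by interferon gamma 9 were higher, with a median of 0.065. The called one was Cxcl9, a chemokine that draws activated T cells, which rose by 0.56 (limma adjusted p = 0.0210). That call was lost without filtered-air mouse 1 (adjusted p = 0.0545), ozone mouse 3 (0.0540), ozone mouse 5 (0.0525) or both mice numbered 4 (0.0632). It was also lost with a variance trend (0.0616), after quantile normalization (0.0767), in batch 1 (0.0771) and in batch 2 (0.393). Of 14 genes induced by type I interferon 8 were higher, with a median of 0.013 and 0 called in limma (1 at an unadjusted p under 0.05). The smallest p was that of Oas1a, an antiviral enzyme (difference 0.12, limma adjusted p = 0.119).

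Class II genes lay on 1 side of 0, unlike the class I members, of which 7 were higher and 3 lower. All 11 class II chains and regulators examined were lower after ozone, with differences from -0.61 to -0.11 and a median of -0.21. In limma 0 of the 11 were called, and 10 had an unadjusted p under 0.05, where the share over all genes was 16.7% (8.29% lower). The exact permutation test gave 9 under 0.05 before adjustment, and its share over all genes was not computed. In H2-Aa, H2-Ab1, H2-DMb1, Cd74 and Ciita filtered-air mouse 4 was the highest of its group and mouse 5 the lowest. These genes thus varied together, and the counts are not of independent results. H2-Ab1, the beta chain of the main class II molecule, lay between -0.44 and 0.68 in filtered air and between -0.80 and -0.12 after ozone (difference -0.61, limma adjusted p = 0.0522). Filtered-air mouse 4 was the highest of its group and ozone mouse 4 the highest of its own. H2-Ab1 was called without filtered-air mouse 5 (limma adjusted p = 0.0267), without filtered-air mouse 6 (0.0322) and without ozone mouse 4 (0.0227). It was also called without both mice numbered 4 (0.0135), with no batch covariate (0.0359) and with RNA integrity as a covariate (0.0430). In 17 of 24 alternatives, however, H2-Ab1 did not pass. Its limma adjusted p reached 0.108 without single mice and 0.476 over all alternatives. The difference of H2-Ab1 was -0.37 in batch 1 and -0.84 in batch 2.

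The gap between the classes within each mouse is given as a description, without a test, for 2 pairs chosen after the values had been seen. H2-Ab1 minus H2-K1 ranged from -0.45 to 0.61 in filtered air and from -0.87 to -0.19 after ozone, and its mean was -0.61 after ozone against 0. Cd74, the invariant chain of class II, minus B2m ranged from -0.40 to 0.60 and from -0.99 to -0.17, with a mean of -0.64 against 0. In each pair 5 of 6 ozone mice lay below every filtered-air mouse. Without both mice numbered 4 the differences were -0.57 and -0.61. Over the 12 mice H2-Ab1 spanned 1.48 and Cd74 1.49, but H2-K1 only 0.14 and B2m 0.26. The gaps therefore largely restate the class II values and add little to them. Markers of B cells, which carry class II, were lower after ozone in 5 of 5 genes, with 0 called in limma and 3 at an unadjusted p under 0.05. The mean of these markers was -0.25 to 0.35 in filtered air and -0.30 to -0.13 after ozone. Markers of conventional dendritic cells, which carry both classes, were lower in 6 of 7 genes, with 0 called in limma and 2 at an unadjusted p under 0.05, and means of -0.16 to 0.13 and -0.18 to 0.026. The part of these cells in the difference between the classes was not tested.

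**Figure D3:**
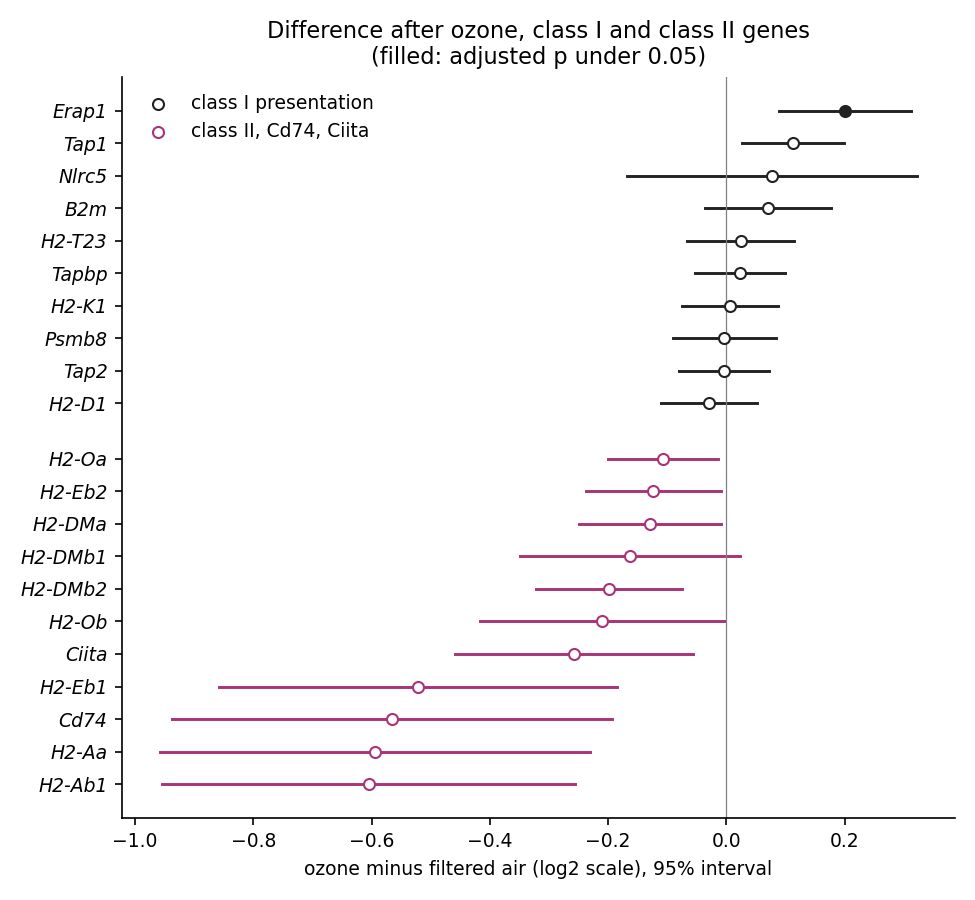
Ozone minus filtered-air difference (x axis, log2 scale) of the 10 class I members (black) and 11 class II genes (purple), with 95% intervals from limma and filled points at an adjusted p under 0.05. Erap1 at 0.20 is the only filled point, and all 11 class II genes lie left of 0.

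Deviations of single mice were compared between members. After the means of exposure and batch had been removed, the deviations of 32 of the 45 pairs of members correlated positively over the 12 mice. The share over pairs of other genes was not computed, so this count does not set the members apart. H2-D1, H2-T23, B2m, Psmb8, Tapbp and Tap2 correlated positively in every pair over the 12 mice, and in each batch except for Tap2 with Tapbp in batch 2 (r = -0.35). Filtered-air mice 5 and 6 and ozone mouse 6 were low in B2m (-0.10, -0.091 and -0.14). They were also low in the mean of the 14 core proteasome subunits (-0.088, -0.089 and -0.13). Low values in these mice were thus not confined to the members. Tap1 had negative correlations with H2-D1, H2-T23, B2m, Tapbp and Psmb8, of which 0 had an adjusted p under 0.05 (permutation adjusted p for Pearson's r 0.396 to 0.732). In batch 1 those of Tap1 with H2-T23, B2m and Tapbp were positive (r = 0.14, 0.32 and 0.39), so that pattern did not hold within both batches. The pair H2-D1 and H2-T23 alone had an adjusted p under 0.05 in both measures (Pearson r = 0.89, permutation p adjusted over 45 pairs 0.00765; Spearman rho = 0.85, adjusted p = 0.0252). Leaving out the 2 mice farthest from the median of H2-D1 gave r = 0.88, batch 1 gave 0.93, batch 2 gave 0.91, filtered-air mice gave 0.91 and ozone mice gave 0.88. Filtered-air mice 5 and 6 and ozone mice 2 and 6 were apart from the rest, low in both genes, and among the other 8 mice r was 0.63. These 2 heavy chains share 101 of the 2053 50-base windows of H2-D1, or 4.92%, and the part of shared reads in this relation was not tested.

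**Figure D4:**
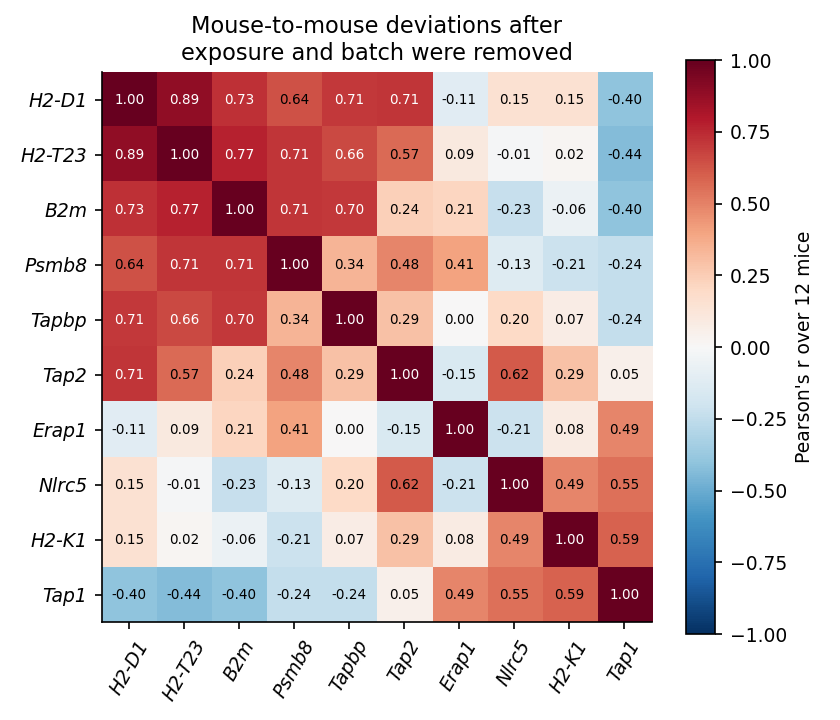
Pearson's r over the 12 mice between the deviations of each pair of members, after the means of exposure and batch were removed (colour scale from -1 to 1, value printed in each cell). H2-D1, H2-T23, B2m, Psmb8, Tapbp and Tap2 are positive with each other, and Tap1 is negative with all of these except Tap2 (r = 0.05) over the 12 mice, though not with H2-T23, B2m and Tapbp in batch 1.

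H2-K1 correlated with the mean of markers of some other cell types. Over 120 relations between a member and the mean of a gene list, 3 had an adjusted p under 0.05 in both measures, and all 3 were of H2-K1. It correlated with the mean of the 7 markers of conventional dendritic cells (Pearson r = 0.90, permutation p adjusted over 120 relations 0.0120, and Spearman rho = 0.88, adjusted p = 0.0186). This mean is not scaled, so a marker with a wide range, such as Ccr7 (0.87 over the mice), weighs more than Xcr1 (0.27). Not every marker followed H2-K1. In ozone mouse 1, where H2-K1 deviated by -0.076, Batf3 deviated by 0.13 and the other markers were negative. The relation of each single marker to H2-K1 was not tested. The r was 0.91 without the 2 mice farthest from the median of the markers, 0.89 in batch 1, 0.91 in batch 2, 0.88 in filtered-air mice and 0.96 in ozone mice. In 5 mice the mean of the markers was apart from the rest and low, and among the other 7 r was 0.69.

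The other 2 relations were those of H2-K1 with the mean of the fibroblast markers (Pearson r = 0.87, permutation adjusted p = 0.0204, and Spearman rho = 0.85, adjusted p = 0.0292) and with that of the endothelial markers (r = 0.84, permutation adjusted p = 0.0312, and rho = 0.92, adjusted p = 0.0108). Without the 2 farthest mice they were 0.87 and 0.92. Batches 1 and 2 gave 0.87 and 0.87 for fibroblast markers and 0.75 and 0.92 for endothelial markers. By the mean of the fibroblast markers the mice fell into 2 sets of 6, within which r was 0.18 and 0.63, so that relation rests largely on the step between the sets. For endothelial markers, r was 0.87 among the 8 mice with low values. With markers of alveolar macrophages H2-K1 had r = -0.55 (permutation adjusted p = 0.447; Spearman rho = -0.50, adjusted p = 0.655).

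Further relations fell short of the threshold. With the interferon gamma list, H2-K1 had r = 0.82 (permutation adjusted p = 0.0504) and rho = 0.78 (adjusted p = 0.0769), and Tap1 had r = 0.78 (permutation adjusted p = 0.0570) and rho = 0.80 (adjusted p = 0.0769). For H2-K1 this r was 0.57 in filtered-air mice and 0.95 in ozone mice, and for Tap1 0.79 and 0.78. H2-K1 also had r = 0.80 with markers of T and NK cells (permutation adjusted p = 0.0570; rho = 0.79, adjusted p = 0.0769), r = 0.77 with markers of monocytes and interstitial macrophages (permutation adjusted p = 0.0744; rho = 0.77, adjusted p = 0.0769) and r = 0.70 with epithelial markers (permutation adjusted p = 0.150; rho = 0.77, adjusted p = 0.0769). H2-D1 and B2m lay at r = -0.14 and -0.32 with the interferon gamma list (permutation adjusted p = 0.898 and 0.835). The part of RNA from other cell types in the values of H2-K1 was not tested.

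**Figure D5:**
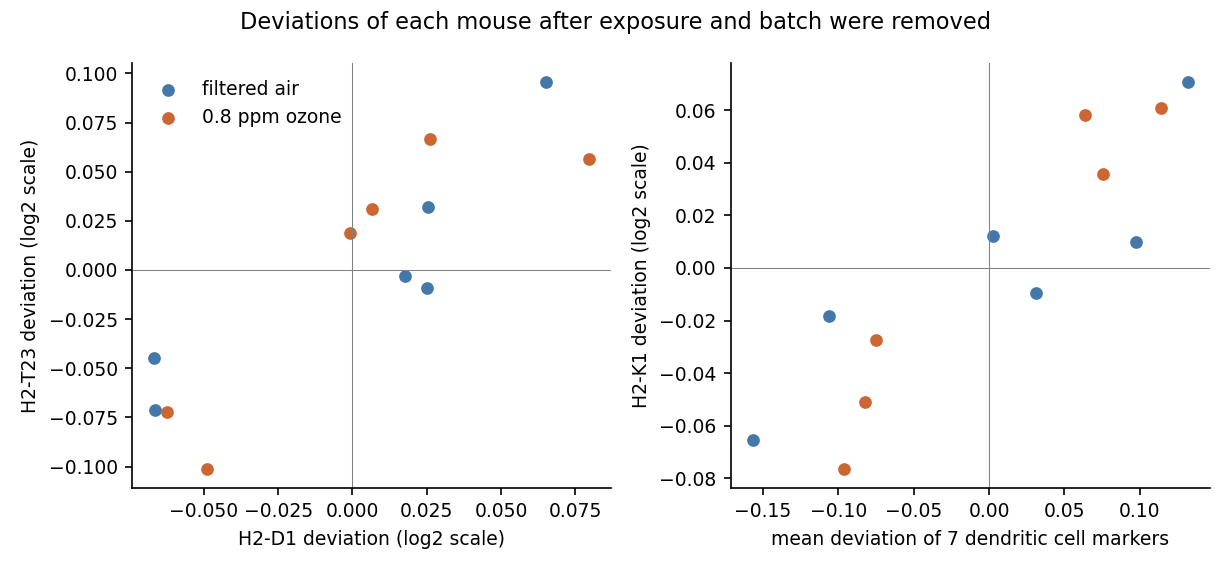
Deviations of each mouse after the means of exposure and batch were removed, for H2-T23 against H2-D1 (left, both log2 scale) and for H2-K1 against the mean of 7 dendritic cell markers (right), with 1 point per mouse coloured by exposure. Points rise from lower left to upper right in both panels (r = 0.89 and 0.90 over 12 mice), with 4 mice apart at the lower left of the left panel and 5 in the right one.

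Among 19458 genes outside all lists, those whose deviations were most like the mean of the 10 members were Dbndd1 (r = 0.89), Cnr1 (r = 0.87), Gm42778 (r = 0.87), Gm30042 (r = 0.87) and Ifi27 (r = 0.85), over 12 mice. These are the highest of many values and are given as a description. Dbndd1, Cnr1 and Gm42778 lay at a shared minimum in 2, 5 and 2 mice, so their values rest on few reads. Ifi27 is an interferon-induced gene, and its ozone difference was -0.066 (limma adjusted p = 0.533).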

How the data were processed

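The authors deposited 1 table with values on a log2 scale, variance-stabilized and batch-corrected per the file's name. The submitters' processing notes name the build mm10 and cutadapt, STAR 2.7.7a, Salmon 1.5.2, DESeq2 1.26.0, R 3.6.0 and limma 3.42.2, without roles. Coordinates are GENCODE M21's, on GRCm38, the assembly of mm10. All 12 columns matched a sample title. The filtered-air mean is 0 in every gene.

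Genes were kept where at least 6 of 12 mice lay above the minimum shared within a flow-sort batch (tolerance 1e-06), which left 19633 of 25444 varying genes. Ozone was compared with filtered air with limma 3.58.1 in R 4.3.3, with batch as covariate and no variance trend, because gene means in this table carry no abundance. P-values were adjusted by Benjamini-Hochberg over all genes kept, with a threshold of 0.05. The pipeline was tested on simulated data. Correlations used residuals after exposure and batch and 100000 permutations, which treat the 12 residuals as exchangeable. Exact tests used all 924 assignments. The alternatives changed the filter, the variance prior, the scaling, the covariates and the mice used.

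All members are described. Of every other list each called gene is named or, with none called, the gene with the smallest p. Irf1, Cd1d1, H2-Q6, Cd74, Epcam and the 4 macrophage markers were named after their values were seen. Members and lists were chosen with earlier results of these data known. Of 177 listed names 1 was matched through a RefSeq synonym.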

Additional observations from a re-analysis of the deposited data

Results flagged for a closer look

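In 5 of 68 combinations of a gene whose value is given here and a group of 6 mice, 1 mouse lay far from the others (a gap to the next mouse past Dixon's 95% critical share of the group's range), where chance gives about 1 in 20, or 3.4. None of the 5 concerns a member. H2-T24 in ozone mouse 2 was the lowest of its group, at 0.059 against 0.17 for the next (ratio 0.710). H2-Ab1 in ozone mouse 4 was the highest of its group, at -0.12 against -0.58 for the next (ratio 0.674). Cxcl9 in filtered-air mouse 5 was the highest of its group, at 0.23 against -0.0032 for the next (ratio 0.693). Cd74 in ozone mouse 4 was the highest of its group, at -0.011 against -0.55 for the next (ratio 0.665). Gm42778 in filtered-air mouse 5 was the lowest of its group, at -0.11 against -0.011 for the next (ratio 0.637).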

How the results depend on the processing

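Of 240 results for the 10 members under alternatives, 203 kept their direction and side of the threshold, 17 lost the call, all of Erap1, and 20 changed sign without a call in either fit. The 1 called member became 0 with no filter, with the variance trend, after quantile normalization, with RNA integrity as a covariate, in batch 1 alone, in batch 2 alone and without both mice numbered 4, and ranged from 0 to 1 without single mice. Over all genes 834 calls became 171 after quantile normalization, 90 in batch 1, 0 in batch 2 (1800 at an unadjusted p under 0.05 in limma) and 534 without both mice numbered 4, and ranged from 538 (without filtered-air mouse 1) to 751 without single mice. Signs changed in Psmb8 after quantile normalization (0.0012), with RNA integrity (0.00093), in batch 1 (0.031) and without both mice numbered 4 (0.010), in Tap2 in batch 1 (0.016) and without both mice (0.012), and in batch 2 in H2-K1 (-0.022) and Nlrc5 (-0.033). Without single mice H2-K1 ranged from -0.0080 to 0.023, Tap2 from -0.026 to 0.0063 and Psmb8 from -0.027 to 0.015. The batches alone use fewer mice; otherwise the cause was not tested. Same-numbered mice are different animals, and 4 of 6 such pairs had deviations correlated above 0.1, while 3 of 6 filtered-air mice correlated best with their own number. With the replicate block 853 genes and 0 members were called, Erap1 had an adjusted p of 0.0701 and H2-Ab1 passed (0.00320). The number of mice and the unknown read totals limit what could be detected.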
